A study of Mus musculus with 9 samples.

Results

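Müller glia and astrocyte transcripts were followed in RNA sequencing libraries of purified mouse retinal ganglion cells (RGCs) after mild or moderate elevation of intraocular pressure (IOP). The members were 10 genes given by name, Glul, Rlbp1, Slc1a3, Aqp4, S100b, Gfap, Vim, Apoe, Clu and Dkk3, among the 23997 gene symbols that every library listed. These genes were chosen by earlier analysis of the same values, the levels of the 3 groups of libraries. Their levels and differences are therefore given below as a description, with no test of the list as a whole. Where the text counts these genes past a threshold, nothing is read from the count. All 10 genes passed the filter on low values (a mean scaled FPKM of at least 0.5).

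The animals were wild type C57BL/6J mice aged 8 weeks at collection. Their left eyes were injected in the anterior chamber at 6 weeks of age and followed for 2 weeks, and the right eyes were not injected. Control eyes received saline, and Mild IOP and Moderate IOP eyes received microbeads, which slow the outflow of aqueous humour, and were sorted into a group by the rise in pressure that followed. RGCs were immunopanned, with negative steps against macrophages and microglia, endothelial cells, fibroblasts and VC1.1-positive amacrine cells and a positive step for Thy1.2, and no step against Müller glia or astrocytes is described. RNA from the animals of a group was combined into 1 pool, with fewer retinas in the Moderate IOP pool than in the others, and each pool was split into 3 technical replicate libraries. The 9 libraries therefore represent 3 pools, and the standard errors and FDR values below cover the spread between libraries of a pool and not the spread between animals.

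Müller glia are the radial glia of the retina. They span its whole depth, take up the glutamate and potassium that neurons release, return glutamine to them and recycle retinoid for cones. Astrocytes lie among the RGC axons in the nerve fibre layer and wrap its vessels. Both cell types respond to retinal injury and pressure by gliosis, in which the intermediate filament proteins GFAP and vimentin accumulate and STAT3 signalling is active. Some genes of the list are not restricted to glia: clusterin, apolipoprotein E and Dkk3 are also made by other cells, neurons included.

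Expression is given as FPKM, a fragment count corrected for transcript length and for the mapped fragments of a library, estimated by the authors with cufflinks and here divided by a median-of-ratios factor per library (scaled FPKM). The factors ran from 0.983 to 1.058. The depth derived from the confidence bounds of cufflinks was between 4370000 and 7810000 fragments per library, and 14182 to 14914 symbols had a value above 0. The most abundant gene held 20.5% of the summed FPKM in Mild IOP replicate 2 and 9.1% in Moderate IOP replicate 3, against 1.9% to 3.6% in the other libraries. Lens transcripts also set the pools apart, with a summed level of 217.1 to 282 scaled FPKM for 6 lens markers in Control and 0.443 to 1.65 in all microbead libraries. In pooled RNA, fewer cells of a type and less RNA per cell cannot be told apart.

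Some genes that define retinal glia were near 0, and some other genes listed for glia averaged at least 20 scaled FPKM. The inward rectifier channel gene Kcnj10, which sets the potassium conductance of Müller glia, averaged 0.127, 0.0852 and 0.135 scaled FPKM in Control, Mild and Moderate IOP. The glial transcription factor gene Sox9 averaged 0.467, 0.233 and 0.667 in the same order. Among astrocyte genes, the gap junction gene Gja1 averaged 0.0634, 0.206 and 0.152, and Aldh1l1, a folate enzyme used as an astrocyte marker, averaged 0.168, 0.345 and 0.831. These 4 genes were named after their values were seen. Of 22 further Müller glia genes, 8 had a mean below 0.5, 14 were tested and 3 averaged at least 20 scaled FPKM, and of 12 further astrocyte genes 8 had a mean below 0.5, with Itih3 listed at 0 in every library. The 10 transcripts are therefore named here for the cells they are known from, and their source in these pools was not tested.

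The levels of the 10 genes spanned a wide range, and the most abundant ones were among the most abundant transcripts of the libraries. Dkk3, a secreted member of the Dickkopf family, averaged 472.1 scaled FPKM over the 9 libraries and ranked 161 of 23997 symbols. Clu, a secreted chaperone, averaged 301.8 and ranked 307. Apoe, the lipid carrier of glial lipoproteins, averaged 95.4 and ranked 1092. Next came Glul with 33.3 and Rlbp1 with 10.5 scaled FPKM. The other 5 genes were low, with means of 3.27 for Vim, 2.37 for Slc1a3, 1.41 for Aqp4, 1.36 for S100b and 1.00 for Gfap. Dkk3, Clu, Apoe and Glul together held 96.4% to 98.9% of the summed level of the list in each library.

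The order Dkk3, Clu, Apoe, Glul, Rlbp1 was the same in all 3 groups, and the ranges of neighbouring genes did not overlap in any group. In both Control and Mild IOP the next genes were Slc1a3, Vim, Aqp4, S100b and Gfap, and within these 5 every pair of neighbours overlapped. In Moderate IOP, Vim lay above Slc1a3 without overlap, and S100b, Gfap and Aqp4 followed with overlapping ranges. The summed level of the list was 852.3 to 894.9 scaled FPKM in Control, 863.9 to 914.3 in Mild IOP and 966.4 to 1017 in Moderate IOP.

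**Figure D1:**
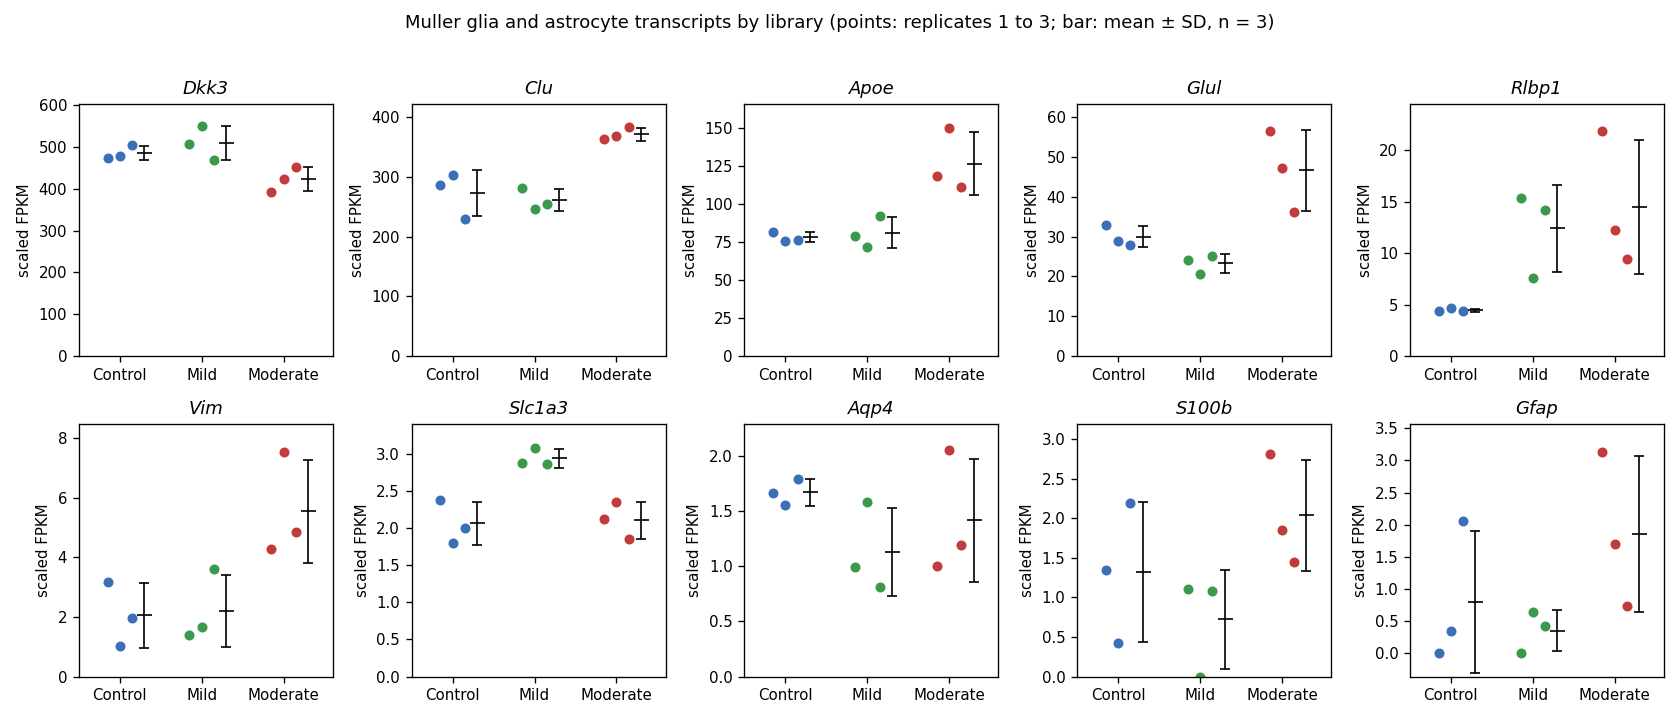
Scaled FPKM of the 10 genes in each library, with 1 panel per gene and its own linear axis, ordered by mean level. Points are replicates 1 to 3 of Control (blue), Mild IOP (green) and Moderate IOP (red), and the black bar beside them is the mean ± SD (n = 3 technical replicates). All 3 Moderate IOP libraries lie above all Control libraries for Clu, Apoe, Glul, Rlbp1 and Vim and below them for Dkk3.

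Between Mild IOP and Control, Rlbp1 and Slc1a3 were higher in all 3 Mild IOP libraries than in any Control library. Glul was lower in all 3, and the other 7 genes overlapped. Over all 13043 genes tested, 7.94% had every Mild IOP library above every Control library and 9.13% had every one below. With limma and an FDR below 0.1, 0 of the 10 genes were differentially expressed, and 1 had an unadjusted p below 0.05, where 0.399% of all genes tested were called (1 higher and 51 lower). The median log2 difference of the list was 0.00, and that of all genes tested was 0.006.

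Between Moderate IOP and Control, Glul, Rlbp1, Vim, Apoe and Clu were higher in every Moderate IOP library, Dkk3 was lower in every one, and 4 genes overlapped. Over all genes tested, 9.95% lay wholly above and 9.48% wholly below. The FDR threshold was passed by Rlbp1 and Apoe, 2 of 10, where 1.84% of all genes tested passed it (124 higher and 116 lower). The median log2 difference was 0.52 for the list and 0.004 for all genes tested.

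Glul, S100b, Gfap, Vim, Apoe and Clu were higher in all 3 Moderate IOP libraries than in any Mild IOP library. Slc1a3 and Dkk3 were lower in all 3, and Rlbp1 and Aqp4 overlapped. Over all genes tested, 14.5% lay wholly above and 13% wholly below. The FDR threshold was passed by Glul, Apoe and Clu, 3 of 10, where 10.2% of all genes tested passed it (917 higher and 407 lower). The median log2 difference was 0.57 for the list and -0.016 for all genes tested. Since these contrasts were used to choose the genes, nothing is read from the counts, and since the comparisons share libraries, their values are given side by side.

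**Figure D2:**
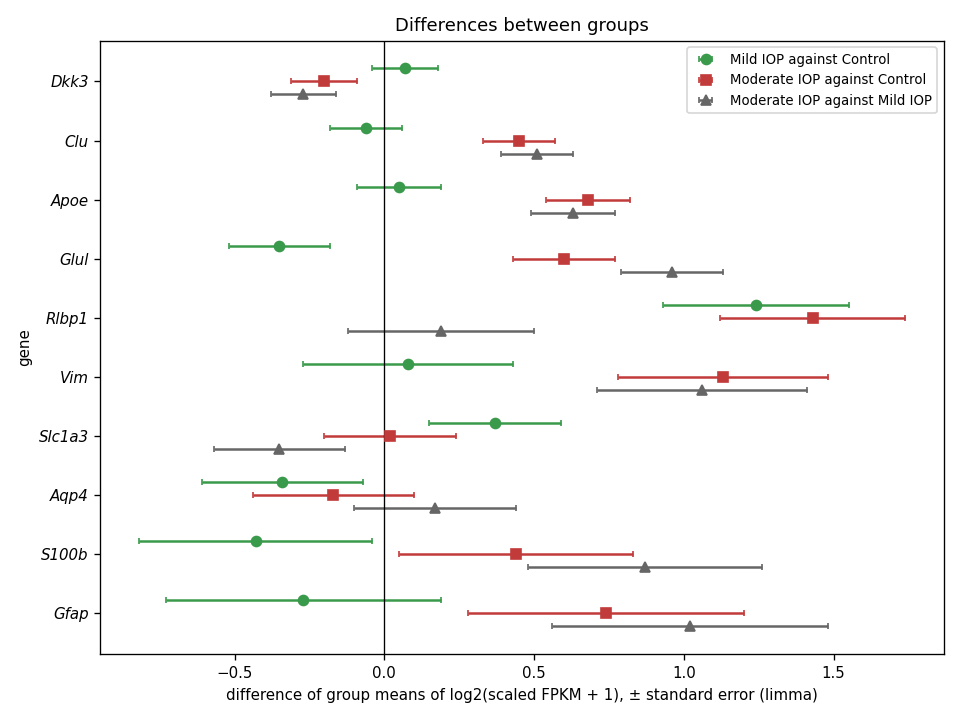
Difference of log2(scaled FPKM + 1) between the means of each pair of groups, for the 10 genes, with the standard error of limma over all 9 libraries (horizontal bars). Green circles compare Mild IOP with Control, red squares Moderate IOP with Control and grey triangles Moderate IOP with Mild IOP, and the vertical line marks no difference. Rlbp1 is the gene with both microbead groups more than 1 above Control, and Dkk3 lies to the left of the line in both Moderate IOP comparisons.

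Glul and Slc1a3 act in the glutamate-glutamine cycle. Glul encodes glutamine synthetase, which turns the glutamate taken up by Müller glia into glutamine, and lies at chr1:153899929-153909723 (mm10). Its level in replicates 1, 2 and 3 was 32.9, 29.0 and 28.0 scaled FPKM in Control, 24.1, 20.7 and 25.1 in Mild IOP and 56.6, 47.3 and 36.3 in Moderate IOP. The 3 groups did not overlap, with Mild IOP lowest and Moderate IOP highest, and the Moderate IOP libraries differed by up to 1.56 times among themselves. The log2 difference was -0.35 ± 0.17 (SE) for Mild IOP against Control, 0.60 ± 0.17 for Moderate IOP against Control and 0.96 ± 0.17 for Moderate IOP against Mild IOP. Each value rested on 327.3 to 764.5 derived fragments.

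Slc1a3 encodes GLAST, the main glutamate transporter of Müller glia, at chr15:8634124-8710807. Its level was 2.38, 1.80 and 2.01 scaled FPKM in Control replicates 1, 2 and 3, 2.88, 3.09 and 2.86 in Mild IOP and 2.12, 2.35 and 1.85 in Moderate IOP. The Mild IOP libraries lay close together above all the others, while Control and Moderate IOP overlapped. The log2 difference was 0.37 ± 0.22 for Mild IOP against Control, 0.02 ± 0.22 for Moderate IOP against Control and -0.35 ± 0.22 for Moderate IOP against Mild IOP, on 43.4 to 93.7 fragments per value. Mild IOP was thus the lowest group for Glul and the highest for Slc1a3, while Moderate IOP was set apart from Control for Glul only.

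No other gene of the cycle was called. All 10 listed partners were tested, and 0 passed FDR 0.1 in any of the 3 comparisons, with 0, 2 and 1 at an unadjusted p below 0.05 for Mild IOP against Control, Moderate IOP against Control and Moderate IOP against Mild IOP. The most abundant was Glud1, glutamate dehydrogenase, with 46.4 ± 4.16, 49.97 ± 3.19 and 50.9 ± 4.76 scaled FPKM (mean ± SD, n = 3) for Control, Mild IOP and Moderate IOP. Slc17a6, the vesicular glutamate transporter of RGCs, had 36.1 ± 5.15, 36.6 ± 1.87 and 43.5 ± 6.01. The neuronal glutamate transporter gene Slc1a1 had 33.9 ± 3.00, 40.9 ± 1.66 and 33.3 ± 7.63. Among glutamine carriers, Slc38a1 had 34.3, 31.5 and 29.5, Slc38a2 had 25.9, 24.1 and 18.5, and Slc38a3, the carrier by which Müller glia export glutamine, had 20.8, 19.9 and 28.9 scaled FPKM.

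Rlbp1 showed the largest ratio to Control among the genes above 5 scaled FPKM in the list. It encodes CRALBP, the retinal-binding protein of Müller glia and pigment epithelium in the visual cycle, at chr7:79374870-79387027. Its level was 4.38, 4.64 and 4.37 scaled FPKM in Control replicates 1, 2 and 3, 15.4, 7.61 and 14.2 in Mild IOP and 21.8, 12.2 and 9.45 in Moderate IOP. The Control libraries differed by no more than 1.06 times, and the microbead libraries by 2.02 times in Mild IOP and 2.31 times in Moderate IOP, yet every one lay above every Control library. The mean was 2.78 times Control in Mild IOP and 3.25 times in Moderate IOP, with log2 differences of 1.24 ± 0.31 and 1.43 ± 0.31, and the microbead groups overlapped (0.19 ± 0.31). The values rested on 42.3 to 81.7 fragments in Control and 104.7 to 213.9 in the microbead libraries. Over 17 alternative settings, the log2 difference between Moderate IOP and Control ran from 1.11 to 1.67.

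Of 9 partners of Rlbp1 in the visual cycle, 5 were tested. Rdh11, a retinol dehydrogenase, had 40.6 ± 7.87, 34.7 ± 4.30 and 37.4 ± 10.5 scaled FPKM in Control, Mild IOP and Moderate IOP, with overlapping libraries and no call. Rdh5, another retinol dehydrogenase, was listed at 0 in all 3 Moderate IOP libraries and had 2.07, 1.05 and 1.19 in Mild IOP, and was called lower between these groups (limma, FDR = 0.052). Its Control libraries read 2.39, 1.11 and 0.544, no value of Rdh5 exceeded 18.9 fragments, and the call was lost without Mild IOP replicate 1 or 2 or Moderate IOP replicate 1 or 2 (FDR up to 0.18). Rpe65, the isomerase of the pigment epithelium, was listed at 0 in every library, and Rgr, an opsin of Müller glia and pigment epithelium, was listed at 0 in all microbead libraries and in Control replicate 2, with 1.80 and 1.81 scaled FPKM in the other Control libraries.

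Aqp4 encodes the water channel of glial endfeet and lies at chr18:15389394-15403684. Its level was 1.66, 1.56 and 1.79 scaled FPKM in Control replicates 1, 2 and 3, 0.994, 1.58 and 0.812 in Mild IOP and 1.00, 2.06 and 1.19 in Moderate IOP. All 3 groups overlapped, with log2 differences of -0.34 ± 0.27, -0.17 ± 0.27 and 0.17 ± 0.27 for Mild IOP against Control, Moderate IOP against Control and Moderate IOP against Mild IOP, on 23.7 to 94.6 fragments. The 95% interval of the difference between Moderate IOP and Control ran from -0.77 to 0.43. Of 5 listed partners at the endfoot, 4 were tested and 0 were called in any comparison (unadjusted p below 0.05 for 0), the most abundant being the dystrophin partner Dtna with 19.7 ± 5.09, 22.96 ± 6.18 and 24.6 ± 4.06 scaled FPKM.

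Gfap, Vim and S100b are markers of glial reactivity or astrocyte identity, and all 3 rested on few fragments. Gfap, the intermediate filament gene whose protein marks astrocytes and reactive Müller glia, lies at chr11:102887336-102897200. It was listed at 0 in Control replicate 1 and Mild IOP replicate 1. The other values were 0.339 and 2.06 scaled FPKM in Control replicates 2 and 3, 0.635 and 0.415 in Mild IOP replicates 2 and 3, and 3.13, 1.70 and 0.726 in Moderate IOP replicates 1, 2 and 3. Control overlapped both microbead groups, while every Moderate IOP library lay above every Mild IOP library, the closest by 0.726 against 0.635. No value rested on more than 38.3 fragments, and the log2 differences were -0.27 ± 0.46 for Mild IOP against Control, 0.74 ± 0.46 for Moderate IOP against Control and 1.02 ± 0.46 for Moderate IOP against Mild IOP. When 0.1 rather than 1 was added before the logarithm, the Moderate IOP differences were 1.89 from Control and 2.33 from Mild IOP.

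Vim encodes vimentin, the filament protein that Müller glia express in the resting state too, at chr2:13574311-13582826. Its level was 3.19, 1.01 and 1.95 scaled FPKM in Control replicates 1, 2 and 3, 1.38, 1.66 and 3.60 in Mild IOP and 4.28, 7.52 and 4.85 in Moderate IOP. Control and Mild IOP overlapped, and all Moderate IOP libraries lay above both. The log2 difference was 0.08 ± 0.35 for Mild IOP against Control, 1.13 ± 0.35 for Moderate IOP against Control and 1.06 ± 0.35 for Moderate IOP against Mild IOP, on 16 to 114 fragments. Of 4 listed filament partners, 2 were tested and 0 were called in any comparison (unadjusted p below 0.05 for 0). Synm, a filament linker, averaged 6.07, 5.09 and 4.31 scaled FPKM in Control, Mild IOP and Moderate IOP, and Nes, the filament gene of progenitors and reactive glia, averaged at most 0.0666 in a group.

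S100b encodes a calcium-binding protein of astrocytes at chr10:76253836-76261319. Its level was 1.35, 0.428 and 2.19 scaled FPKM in Control replicates 1, 2 and 3, 1.10, 0 and 1.07 in Mild IOP and 2.81, 1.85 and 1.45 in Moderate IOP. Moderate IOP lay above Mild IOP without overlap, and Control spanned both. No value rested on more than 25 fragments, and the log2 differences were -0.43 ± 0.39, 0.44 ± 0.39 and 0.87 ± 0.39 for Mild IOP against Control, Moderate IOP against Control and Moderate IOP against Mild IOP.

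Among reactivity genes outside the list, Stat3 was higher in Moderate IOP than in both other groups. Of 11 such genes, 4 were tested and the other 7 averaged below 0.5 scaled FPKM. In Mild IOP against Control 0 were called (limma, unadjusted p below 0.05 for 0). In Moderate IOP against Control 1 was called, and in Moderate IOP against Mild IOP 2. Over all genes tested, 0.399%, 1.84% and 10.2% were called in the same order. Stat3, the transcription factor of the gliosis response that neurons also express, had 7.12, 7.48 and 7.80 scaled FPKM in Control replicates 1, 2 and 3, 11.4, 7.21 and 9.96 in Mild IOP and 17.2, 21.3 and 14.1 in Moderate IOP. It rose by 1.11 ± 0.21 on the log2 scale in Moderate IOP against Control (FDR = 0.041) and by 0.82 ± 0.21 against Mild IOP (FDR = 0.047). Hspb1, a small heat shock protein gene, was 0.99 ± 0.31 higher in Moderate IOP than in Mild IOP (FDR = 0.088), with 34.6 ± 6.86 against 17.1 ± 4.64 scaled FPKM and 25.5 ± 10.98 in Control. The Hspb1 call held under 6 of 17 alternatives and was lost without any 1 of the Mild IOP libraries, Control replicate 2, or Moderate IOP replicate 1 or 2 (FDR up to 0.22). The Stat3 call against Control was lost without Control replicate 1 or 2 or Moderate IOP replicate 1 or 2 (FDR up to 0.14), and that against Mild IOP without Mild IOP replicate 2 or Moderate IOP replicate 1 or 2 (FDR up to 0.19).

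Of the relatives of S100b, 3 were called higher in Moderate IOP. Of 8 genes listed, S100 genes and the receptor Ager, 6 were tested. S100a6, S100a10 and S100a16 were called higher in Moderate IOP against Control and against Mild IOP, and 0 were called in Mild IOP against Control (unadjusted p below 0.05 for 1). Over all genes tested, 1.84% and 10.2% were called in Moderate IOP against Control and against Mild IOP. The libraries of S100a11 and S100a13 overlapped between Moderate IOP and Control, and neither gene was called. S100a16, a calcium-binding protein gene, had 3.93, 3.41 and 3.18 scaled FPKM in Control, 2.28, 3.14 and 3.21 in Mild IOP and 18.0, 14.9 and 12.3 in Moderate IOP. It rose by 1.82 ± 0.22 against Control (FDR = 0.0038) and by 2.04 ± 0.22 against Mild IOP (FDR = 0.0029) and passed the threshold under all 17 alternatives. S100a10, the partner of annexin A2, had 94.2, 129.1 and 77.5 in Control, 58.2, 60.1 and 81.7 in Mild IOP and 242.4, 183.8 and 146.9 in Moderate IOP. Its difference of 1.49 ± 0.22 against Mild IOP (FDR = 0.0071) passed under all 17 alternatives, and that of 0.92 ± 0.22 against Control (FDR = 0.095) under 4 of 17. The latter was lost without any 1 of the Mild IOP libraries, Control replicate 1 or 3, or Moderate IOP replicate 1 or 2, with an FDR of up to 0.25 over the alternatives. S100a6 was at or under 0.399 in Control, at 2.93, 2.06 and 0 in Mild IOP and at 4.22, 4.67 and 20.8 in Moderate IOP, so 1 library held most of its Moderate IOP level. Its calls (FDR = 0.056 against Control and 0.087 against Mild IOP) held under 7 and 4 of 16 alternatives, and both were lost without any 1 of the Control libraries or without Moderate IOP replicate 2 or 3, and the latter also without Mild IOP replicate 2 or 3 (FDR up to 0.22). S100a1, the most abundant relative after S100a10, had overlapping libraries in all groups, with 54.7 ± 10.6, 36.2 ± 20.1 and 56.9 ± 19.3 scaled FPKM.

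Apoe and Clu encode apolipoproteins, the protein part of the lipoproteins that glia secrete. Apoe lies at chr7:19696244-19699166, and its level was 82.0, 76.1 and 76.7 scaled FPKM in Control replicates 1, 2 and 3, 79.2, 72.0 and 92.4 in Mild IOP and 118.5, 150.0 and 111.2 in Moderate IOP. Control and Mild IOP overlapped, and every Moderate IOP library lay above both. The mean in Moderate IOP was 1.62 times that in Control and 1.56 times that in Mild IOP, with log2 differences of 0.68 ± 0.14 and 0.63 ± 0.14, against 0.05 ± 0.14 for Mild IOP against Control. The values rested on 419 to 1434.4 fragments. Over 17 alternatives the log2 differences ran from 0.55 to 0.76 against Control and from 0.50 to 0.73 against Mild IOP.

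Clu lies at chr14:65968483-65981545, and its level was 286.3, 302.9 and 229.9 scaled FPKM in Control replicates 1, 2 and 3, 281.5, 245.8 and 255.1 in Mild IOP and 363, 368 and 383.7 in Moderate IOP. As for Apoe, Control and Mild IOP overlapped and Moderate IOP stood above both. The log2 difference was -0.06 ± 0.12 for Mild IOP against Control, 0.45 ± 0.12 for Moderate IOP against Control and 0.51 ± 0.12 for Moderate IOP against Mild IOP. The last one was 0.42 with the FPKM as deposited and 0.41 with upper-quartile scaling.

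Genes for lipid export, uptake and its regulation were listed beside Apoe and Clu. Nr1h2, the liver X receptor gene, had 43.2 ± 5.72, 41.4 ± 1.88 and 53.1 ± 6.63 scaled FPKM in Control, Mild IOP and Moderate IOP and was not called in any comparison. The uptake receptors Vldlr and Lrp8 averaged 11.4, 11.7 and 9.26 and 10.4, 11.1 and 10.5, and the exporters Abcg1 and Abca1 averaged 2.85, 2.31 and 2.57 and 1.38, 1.16 and 0.895 in the same order. None of these genes was called in any comparison (limma, FDR below 0.1).

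Dkk3, a secreted Dickkopf protein and one of the more abundant transcripts of Müller glia, was the member with a lower level in Moderate IOP than in both other groups. It lies at chr7:112116019-112159057. Its level was 474.2, 477.1 and 503.4 scaled FPKM in Control replicates 1, 2 and 3, 507.8, 550.6 and 468.3 in Mild IOP and 393.1, 423.9 and 450.8 in Moderate IOP. Control and Mild IOP overlapped, and all Moderate IOP libraries lay below both. The log2 difference was 0.07 ± 0.11 for Mild IOP against Control, -0.20 ± 0.11 for Moderate IOP against Control and -0.27 ± 0.11 for Moderate IOP against Mild IOP, on 6381.2 to 14497.6 fragments. Of 9 Wnt modulators and co-receptors listed beside Dkk3, 5 were tested and 0 were called in any comparison (limma, unadjusted p below 0.05 for 0). None of the 9 averaged more than 1.68 scaled FPKM in a group, the highest being Sfrp2, a secreted Wnt inhibitor, and Dkk1 averaged at most 0.0162.

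**Figure D3:**
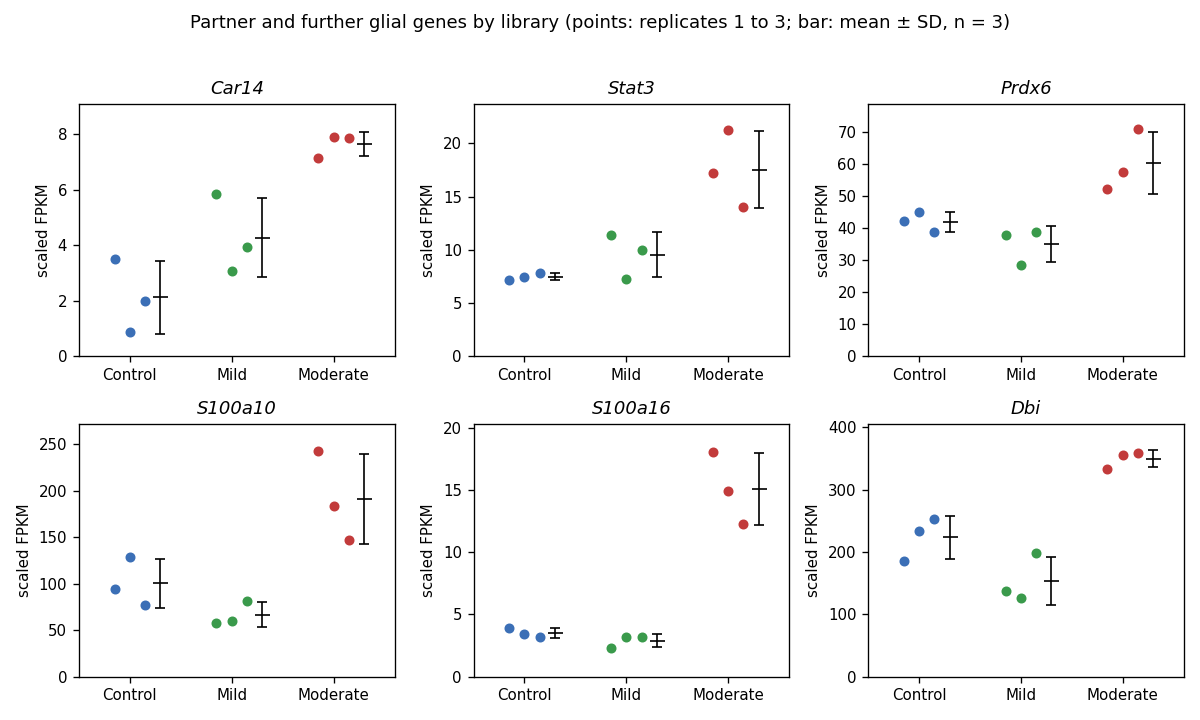
Scaled FPKM in each library of 6 genes outside the list, Car14, Dbi and Prdx6 from the further Müller glia genes, Stat3 from the reactivity genes and S100a10 and S100a16 from the S100 genes, each on its own linear axis. Points are replicates 1 to 3, and the black bar is the mean ± SD (n = 3 technical replicates). The 3 Moderate IOP libraries lie above all Control and Mild IOP libraries for all 6 genes.

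Further genes of Müller glia and astrocytes were listed beside the 10 transcripts. Of 34 genes in both lists, 18 were tested. In Mild IOP against Control 0 were called (limma, unadjusted p below 0.05 for 3), in Moderate IOP against Control 1 was called and in Moderate IOP against Mild IOP 2 were called, all higher, where 1.84% and 10.2% of all genes tested were called in either direction. The median log2 difference was -0.09, 0.33 and 0.24 in the same order. Car14, a membrane carbonic anhydrase of Müller glia, had 3.50, 0.878 and 1.99 scaled FPKM in Control, 5.83, 3.07 and 3.92 in Mild IOP and 7.15, 7.91 and 7.87 in Moderate IOP. It rose by 1.56 ± 0.32 in Moderate IOP against Control (FDR = 0.055), a call that held under 9 of 16 alternatives and was lost without Control replicate 2 or 3 or any 1 of the Moderate IOP libraries (FDR up to 0.16).

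Dbi and Prdx6 were the genes called between Moderate IOP and Mild IOP. Dbi, the acyl-CoA-binding protein that also acts on GABA receptors, had 184.7, 233.1 and 252.3 scaled FPKM in Control, 137.8, 125.3 and 197.8 in Mild IOP and 333.8, 355.8 and 358.5 in Moderate IOP, and was 1.21 ± 0.17 higher in Moderate IOP than in Mild IOP (FDR = 0.0061). Prdx6, a peroxiredoxin, had 42.2, 45.2 and 38.8 in Control, 37.9, 28.6 and 38.7 in Mild IOP and 52.2, 57.6 and 71.0 in Moderate IOP, a difference of 0.77 ± 0.16 (FDR = 0.023). Both passed the threshold under all 17 alternatives, and for both every Moderate IOP library lay above every other library. In contrast, Ttyh1, a glial membrane protein gene, had 30.2 ± 5.70, 28.5 ± 0.948 and 25.3 ± 3.52, and Aldoc, the aldolase of astrocytes, had 1174 ± 125.8, 1001 ± 96.1 and 1165 ± 41.8, and neither was called in any comparison.

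Markers of other cells differed between the pools at the same time. The summed level of 10 RGC markers was 1450 to 1533 scaled FPKM in Control, 1065 to 1311 in Mild IOP and 2289 to 2434 in Moderate IOP, and 0, 2 and 6 of them were called higher in Mild IOP against Control, Moderate IOP against Control and Moderate IOP against Mild IOP (limma, unadjusted p below 0.05 for 1 in the first). The highest, Sncg, had 911.2 ± 49.6, 640.9 ± 117 and 1389 ± 34.1, and the neurofilament gene Nefl had 342.5 ± 9.41, 373.8 ± 10.1 and 537.1 ± 18.2. Sncg held 60.9%, 52.2% and 59.4% of the RGC sum for Control, Mild IOP and Moderate IOP. Against Control, 8 of the 10 RGC markers had a higher mean in Moderate IOP and 2 a lower one. The 2 were Pou4f2 (9.51, 8.33 and 8.91) and Pou4f3 (3.69, 1.93 and 3.09), which were not called. The summed level of 6 amacrine markers was 765.7 to 813.6 in Control, 841.6 to 900.5 in Mild IOP and 546.4 to 596.7 in Moderate IOP, and 0, 2 and 3 of them were called lower. Among them, the GABA-synthesising enzyme gene Gad1 had 549.4 ± 23.6, 586.8 ± 27.5 and 420.8 ± 21.5 and the glycine transporter gene Slc6a9 had 110.3 ± 8.57, 146.1 ± 3.81 and 39.3 ± 6.93. Gad1 held 69.8%, 68% and 73.2% of the amacrine sum for Control, Mild IOP and Moderate IOP. Tfap2a, Tfap2b and Slc32a1 had higher means in Moderate IOP than in Control and were not called. Over all genes tested, 0.399%, 1.84% and 10.2% were called in either direction, in the same order of comparisons. The further Müller glia genes summed to 309 to 373.3, 232.6 to 310.2 and 490.7 to 531 scaled FPKM, of which Dbi held 65.1%, 57.3% and 68.9%. Their 14 tested genes did not share 1 order, as 6 of them had the lowest mean in Mild IOP and the highest in Moderate IOP. So had 6 of the 10 RGC markers, and the share of all genes tested with this order was not counted. The part of cell mixture in the values of the 10 transcripts was not tested.

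Rod, microglia and endothelial markers were read in the same way. The summed level of 8 rod markers was 586.5 to 695.8 in Control, 442.4 to 472.9 in Mild IOP and 425.5 to 479 in Moderate IOP. The arrestin gene Sag had 163.2 ± 14.7, 95.04 ± 14.2 and 98.1 ± 7.82 and was called lower in both microbead groups against Control (FDR = 0.063 for Mild and 0.041 for Moderate IOP). The summed rod level was highest in Control, the group in which Rlbp1 was lowest, and a link between them was not tested. The summed level of 9 microglia markers was 30.2 to 39.3, 26.4 to 40.9 and 44.4 to 50.4. The complement gene C1qc was called higher in Moderate IOP than in Mild IOP, 1 of 8 tested markers, where 10.2% of all genes tested were called. Against Control, 6 of the 8 had a higher mean in Moderate IOP. The 2 with a lower mean were Csf1r (3.03, 2.93 and 1.65 in Control, Mild IOP and Moderate IOP) and Cx3cr1 (0.991, 1.03 and 0.873). P2ry12, which was not tested, averaged 0.740, 0.550 and 0.0668. For 7 endothelial markers the summed level was 2.58 to 4.10, 3.53 to 4.47 and 2.57 to 7.07, and the defining genes Cldn5, Cdh5 and Tie1 were listed at 0 in every library.

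**Figure D4:**
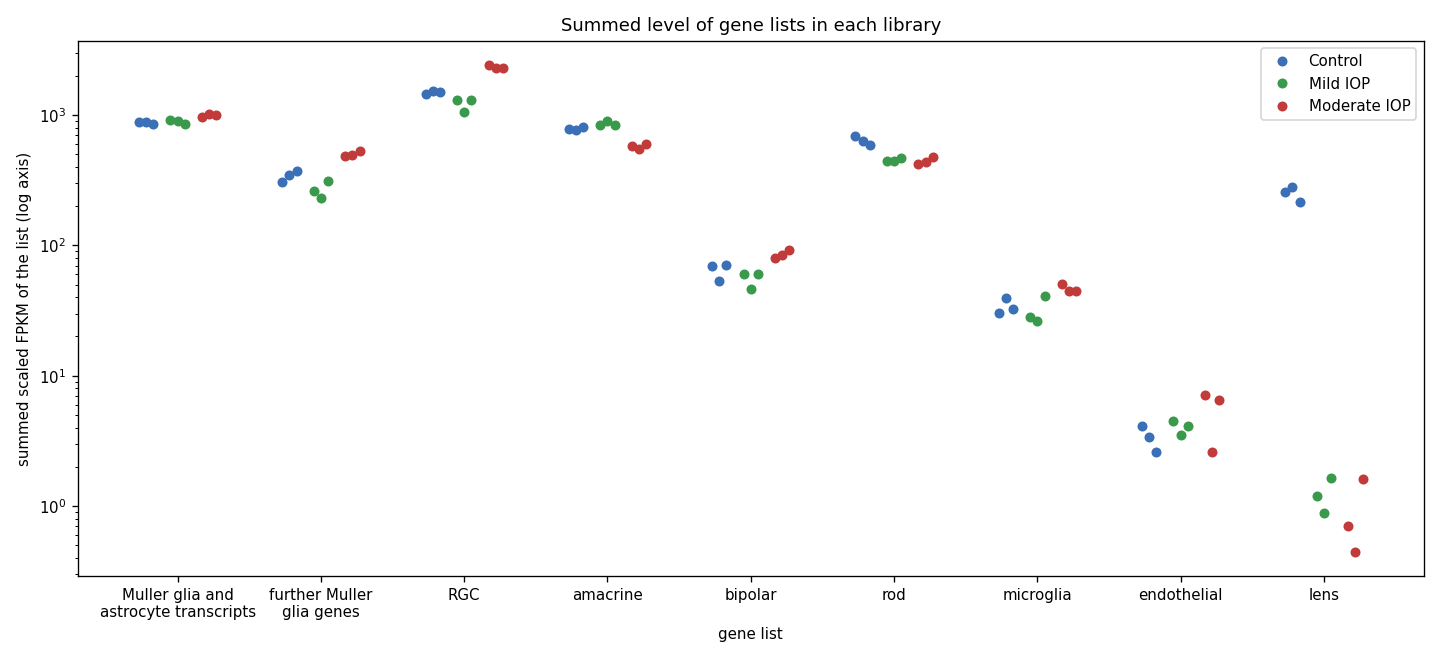
Summed scaled FPKM of gene lists in each library, on a log axis, with 1 point per library (Control blue, Mild IOP green, Moderate IOP red, replicates 1 to 3 from left to right within a group). The lists are the 10 transcripts, further Müller glia genes and markers of RGCs, amacrine cells, bipolar cells, rods, microglia, endothelium and lens. RGC markers and further Müller glia genes are highest in the 3 Moderate IOP libraries, amacrine markers are lowest there, rod markers are highest in Control, and lens markers are above 200 in Control and below 2 in the microbead libraries.

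Across the 9 libraries, some members varied together. Pearson correlations of log2(scaled FPKM + 1) are given as a description, since the 9 libraries are technical replicates of 3 pools. All genes of a library also share its depth and scaling factor. Of 45 pairs, 6 had a correlation above 0.7 and 17 were below 0, with a median of 0.28. The 6 pairs joined Glul, Apoe, Clu, Vim and S100b, the highest being Vim with Apoe (0.92), Glul with Apoe (0.84), Glul with Clu (0.81) and Apoe with Clu (0.81). Dkk3 ran against this group, at -0.95 with Glul, -0.85 with Apoe, -0.80 with Clu, -0.73 with Vim and -0.73 with S100b. Rlbp1, Aqp4, Slc1a3 and Gfap were in none of these pairs, with -0.65 between Rlbp1 and Aqp4, and the closest member to Slc1a3 was Dkk3 at 0.46.

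The mean profile of the 10 genes, centred per gene on the log2 scale, was -0.15, -0.33 and -0.06 in Control replicates 1, 2 and 3, -0.15, -0.26 and -0.03 in Mild IOP and 0.45, 0.43 and 0.12 in Moderate IOP. Moderate IOP replicate 3 thus lay nearer to the other groups than Moderate IOP replicates 1 and 2. It held the lowest Moderate IOP value of Glul, Rlbp1, Slc1a3, S100b, Gfap and Apoe, and the highest of Clu and Dkk3.

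**Figure D5:**
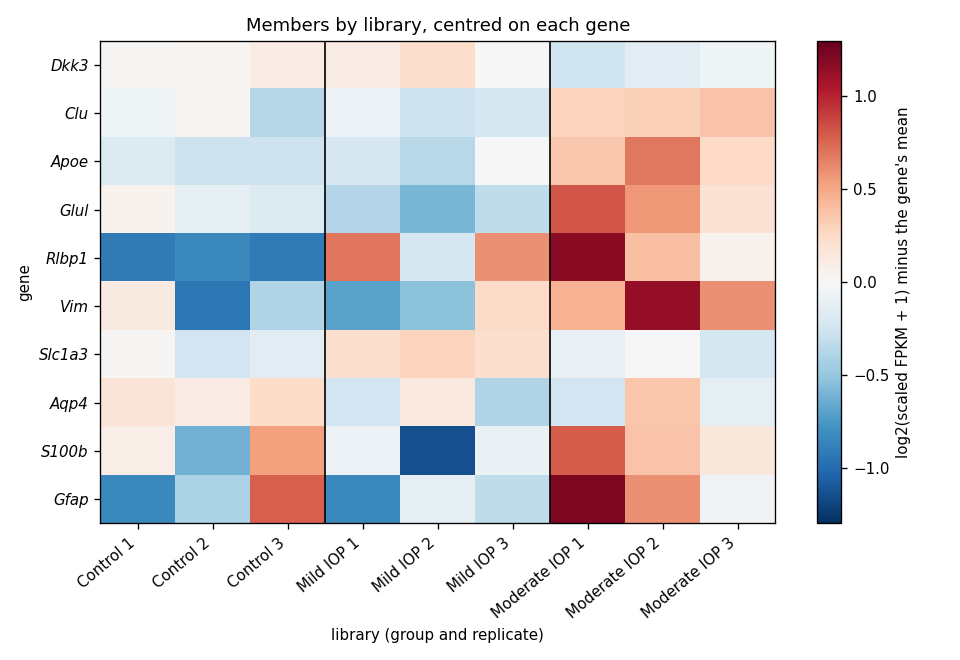
Heat map of log2(scaled FPKM + 1) of the 10 genes (rows) in the 9 libraries (columns, by group and replicate), minus the mean of the gene, with red above and blue below the mean. Glul, Apoe, Clu and Vim are red in all Moderate IOP libraries, Rlbp1 is blue in all Control libraries, and Dkk3 is blue in all Moderate IOP libraries.

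Genes outside the list with the most similar pattern were found among tested genes with a mean of at least 5 scaled FPKM. Closest to the mean profile were Phax (0.96), Arl6ip1 (0.96), Vdac3 (0.95), Ube2n (0.95) and Zfand1 (0.94), as Pearson correlations over 9 libraries. Vdac3, the most abundant of them, had 359.8 ± 9.41, 361.9 ± 27.4 and 430.6 ± 31.1 scaled FPKM for Control, Mild IOP and Moderate IOP. The gene closest to each member was Polr3d for Glul (0.99), Iqcb1 for Rlbp1 (0.97), Alg11 for Slc1a3 (0.97), Rem2 for Aqp4 (0.88), Zrsr2 for S100b (0.96), Ubqln2 for Gfap (0.93), Ccndbp1 for Vim (0.95), Arl6ip1 for Apoe (0.98), Rbfox3 for Clu (0.99) and Atrnl1 for Dkk3 (0.97). With 9 libraries and many candidate genes, correlations of this size were the highest of a wide search. Rbfox3, which encodes the neuronal marker NeuN, had 53.7 ± 4.78, 50.1 ± 1.59 and 66.9 ± 0.340 scaled FPKM in Control, Mild IOP and Moderate IOP.

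The promoters of Glul, Vim and Apoe, which varied together, are shown with that of Gfap, a known STAT3 target. Gfap was not called in any comparison, and whether Stat3 acted on it was not tested. The window of S100b, which also varied with these genes, holds no searched motif and is not shown, and none was read for Clu. Each window holds 250 bases before and 50 bases after a RefSeq start site (GRCm38.p6), 5′ to 3′ on the gene's strand, with matches to a searched motif in capitals. For Glul, Vim and Gfap the start is the one in the deposited files, and for Apoe it lies 22 bases from it.
Glul, chr1:153899679-153899978, plus strand: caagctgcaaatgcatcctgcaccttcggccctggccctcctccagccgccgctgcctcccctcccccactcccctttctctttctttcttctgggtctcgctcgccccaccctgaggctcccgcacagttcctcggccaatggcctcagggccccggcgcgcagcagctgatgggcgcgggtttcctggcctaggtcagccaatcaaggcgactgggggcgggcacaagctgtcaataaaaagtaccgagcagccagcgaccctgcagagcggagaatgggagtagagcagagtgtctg
Vim, chr2:13574061-13574360, plus strand: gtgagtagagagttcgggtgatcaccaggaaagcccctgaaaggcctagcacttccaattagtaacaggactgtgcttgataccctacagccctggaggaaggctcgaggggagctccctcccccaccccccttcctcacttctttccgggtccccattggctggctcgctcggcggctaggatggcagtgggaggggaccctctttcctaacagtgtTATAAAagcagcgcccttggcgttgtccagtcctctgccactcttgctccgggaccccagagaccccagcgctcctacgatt
Apoe, chr7:19699139-19699438, minus strand: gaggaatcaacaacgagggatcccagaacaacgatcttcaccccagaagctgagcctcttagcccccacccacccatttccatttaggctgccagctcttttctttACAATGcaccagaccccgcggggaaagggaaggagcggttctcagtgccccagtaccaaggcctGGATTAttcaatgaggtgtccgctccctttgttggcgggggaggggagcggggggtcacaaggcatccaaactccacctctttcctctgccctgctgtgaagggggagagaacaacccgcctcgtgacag
Gfap, chr11:102897151-102897450, minus strand: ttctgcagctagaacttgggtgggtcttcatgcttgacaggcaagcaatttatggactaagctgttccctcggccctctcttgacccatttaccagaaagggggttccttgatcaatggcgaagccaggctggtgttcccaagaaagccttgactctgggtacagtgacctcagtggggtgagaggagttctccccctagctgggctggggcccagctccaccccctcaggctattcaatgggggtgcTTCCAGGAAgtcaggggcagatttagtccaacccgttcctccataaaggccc
The letters searched, on both strands, were TTCNNNGAA, the element bound by STAT factors, TAATCC, the core of OTX and CRX, ACAATG, the SOX core, TGANTCA, the AP-1 element, and TATAAA, the TATA box. They were found in 8.3%, 7.1%, 12.6%, 7.8% and 13.6% of 32851 promoter windows of the same length. The Vim window holds TATAAA 32 bases before the start, the Apoe window holds ACAATG 144 bases and TAATCC (on the other strand) 80 bases before it, the Gfap window holds TTCCAGGAA from 2 bases before the start and across it, and the Glul window holds none of the 5 motifs. Of 7 members with a window that was read, 2 held TTCNNNGAA (Gfap and Slc1a3), 4 held TATAAA (for Apoe in the window of another start), 1 each held TAATCC and ACAATG, and 0 held TGANTCA. A match describes the letters of the window and is not a measured binding site.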

How the data were processed

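RGCs were isolated from Control, Mild IOP and Moderate IOP eyes, and 3 libraries were made from 1 RNA pool per group (SMART-seq v4, Nextera XT, paired ends on a HiSeq2500). The sample titles gave the group and replicate number. The authors estimated FPKM per locus with cufflinks on the mm10 build, separately for each library, and deposited them with confidence bounds and a status. The methods name bowtie2 as aligner, and the submitters' processing notes list FastQC, Trimmomatic, TopHat2, Cufflinks and Cuffdiff. The files hold no counts and no library totals, so the fragments behind a value were derived as the square of 2 × FPKM / (upper bound − FPKM), and the depth from these and GENCODE M21 transcript lengths (genes of at least 2000 nt and 100 fragments). The derivation is too low for abundant genes.

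FPKM of the 24487 loci were summed per symbol (23997 symbols) and divided by median-of-ratios factors. Genes that averaged 0.5 scaled FPKM or more and had no failed estimate (2 genes had one) entered a limma fit (version 3.58.1, R 4.3.3) of log2(scaled FPKM + 1), with 1 mean per group, all 9 libraries and a variance trend. A pseudocount of 1 understates the change of low genes. Within each comparison the Benjamini-Hochberg adjustment ran over the 13043 genes tested, and genes with an FDR below 0.1, the threshold of the study, were called. Tables and plots used Python 3.11.15 (matplotlib 3.10.9, numpy 2.4.6, scipy 1.17.1, pandas 2.3.3). The fit was tested on simulated data.

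The members, the gene lists and the motifs were chosen with earlier results of these data known. Named genes are the members, genes of the partner lists and further glia lists that were called or averaged at least 20 scaled FPKM, the 2 most abundant markers of other cell types, and the genes with the closest pattern. Genes outside this rule (Kcnj10, Sox9, Gja1, Aldh1l1, Itih3, Rpe65, Rgr, Synm, Nes, Vldlr, Lrp8, Abcg1, Abca1, Sfrp2, Dkk1, Cldn5, Cdh5, Tie1, Lim2 and Cryba1 among others) were named after their values were seen. Some single genes that the rule selects are not reported here. RefSeq promoter windows were read for 7 members. Alternatives covered scaling, pseudocount, filter, the groups in the fit, a replicate block, the variance trend and the leaving out of each library. Same-numbered libraries of different groups did not deviate together (correlations from -0.005 to 0.044 over genes), so the numbers were not treated as pairs. Cuffdiff was not rerun, since it starts from reads, and qPCR was not analysed here.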

Additional observations from a re-analysis of the deposited data

How the results depend on the processing

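The differences of the members were recomputed as 495 values under alternatives, of which 486 moved by less than the spread between replicates, 9 moved by more and 0 of the called ones reversed. Those moved were, with a pseudocount of 0.1, Slc1a3 (0.50 in Mild IOP against Control and -0.47 in Moderate IOP against Mild IOP), Aqp4 (-0.57 in Mild IOP against Control), S100b (-1.21 in Mild IOP against Control and 1.99 in Moderate IOP against Mild IOP) and Gfap (1.89 in Moderate IOP against Control and 2.33 against Mild IOP), and Clu in Moderate IOP against Mild IOP (0.42 with FPKM as deposited and 0.41 with upper-quartile scaling). For called genes outside the list, 183 of 251 values kept the call, 68 lost it and 0 reversed.

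The count of genes called depended on the settings, and the cause was not tested. In Mild IOP against Control it was 52, and became 25 with upper-quartile scaling, 24 with no filter on low values, 85 with a mean of at least 5, 11 with only the 2 groups compared, 15 with no variance trend and 14 to 172 when 1 library was left out. In Moderate IOP against Control it was 240, and became 134 with only the 2 groups compared, 144 with no variance trend and 61 to 271 when 1 library was left out. In Moderate IOP against Mild IOP it was 1324, and became 839 with no variance trend and 518 to 1362 when 1 library was left out. With the replicate number as a block, the counts were 25 in Mild IOP against Control and 135 in Moderate IOP against Control, and the members called in the latter were 1. The numbers do not mark shared material.

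Of the 10 members, 2 were called in Moderate IOP against Control, and 1 with no filter, 1 with only the 2 groups compared, 0 with no variance trend and 0 to 3 when 1 library was left out. In Moderate IOP against Mild IOP, 3 were called, and 1 to 4 when 1 library was left out, 1 being without Mild IOP replicate 2. In Mild IOP against Control 0 were called, also when any 1 library was left out. Of the further glial genes, 1 was called in Moderate IOP against Control, and 0 with no filter and 0 to 2 when 1 library was left out. The counts ran from 0 to 1 in Mild IOP against Control and from 2 to 3 in Moderate IOP against Mild IOP when 1 library was left out.

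Gfap and S100b rested on at most 38.3 and 25 fragments, so their values are imprecise. Each group was 1 pool, and differences between animals could not be measured.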

Other observations

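Markers of further cell types were also read. Bipolar markers (6 genes) summed to 53.3 to 70.8 scaled FPKM in Control, 46.4 to 60.9 in Mild IOP and 80.2 to 92.9 in Moderate IOP. Pcp2, a modulator of G protein signalling in rod bipolar cells, averaged 47.1, 32.7 and 65.9, the last out of a mean sum of 85.9. It was called 1.03 ± 0.23 higher in Moderate IOP than in Mild IOP (limma, FDR = 0.028), as 1 of 5 tested markers, where 10.2% of all genes tested were called. Cabp5, a calcium-binding protein of bipolar cells, averaged 9.51, 12.8 and 11.6, and Prkca averaged 4.13, 5.54 and 5.60. Grm6 (2.12, 2.47 and 1.24) and Trpm1 (1.94, 2.21 and 1.56) were lowest in Moderate IOP and were not called. The median log2 difference of the tested bipolar markers was -0.18 in Moderate IOP against Mild IOP. Cone markers (5 genes) summed to 7.97 to 11.9, 10.8 to 12.96 and 5.91 to 19.1, led by Pde6h and Opn1mw, with 0 called in any comparison (unadjusted p below 0.05 for 0).

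Mural cell markers summed to 0 to 2.11, 3.50 to 8.82 and 3.43 to 4.95, and markers of the retinal pigment epithelium to 0.443 to 1.75, 1.26 to 2.52 and 1.72 to 3.26, with 1 and 2 genes tested and 0 called (limma, unadjusted p below 0.05 for 1 in each list, in both comparisons with Control). Oligodendrocyte markers summed to 1.93 to 5.61, 4.31 to 5.98 and 3.02 to 4.73, led by Mbp, with 0 of 2 tested genes called (unadjusted p below 0.05 for 0). Of the lens markers, Cryaa, Crygs, Cryba1 and Lim2 were called lower in both microbead groups. Cryaa averaged 111.8 scaled FPKM in Control, 0.684 in Mild IOP and was listed at 0 in Moderate IOP, and Crygs averaged 73.4 in Control and was listed at 0 in the microbead libraries.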
